A study of Homo sapiens with 9 samples.

Results

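The RNA-seq library of OAC_5.1_C, a human cell line labelled as oesophageal adenocarcinoma, was set against the libraries of 8 other lines with the same label. It is 1 of 9 libraries in the series and was taken by its label, not by any measured value, so its whole count table of 52158 named genes is described. The lines it was compared with are ESO-26, ESO-51, FLO-1, JH_EsoAd1, OACP4_C, OE19, OE33 and SK-GT-4. All 9 are established lines that share gastric cardia adenocarcinoma as the labelled source, were grown to 80% confluency, and were sequenced from total RNA with no treatment and no added gene or deletion named in the labels. Each line is represented by 1 column of counts, so the differences described have no replicate check and no p-value. Technical replicates, 3 per line, are mentioned in the series design, without a statement of how they were combined into that column.

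Adenocarcinoma of the oesophagus and gastric cardia is a gland-forming epithelial cancer that commonly arises where the normal stratified squamous lining has been replaced by columnar, intestine-like epithelium. Cells of such tumours normally carry the simple keratins of glandular epithelium, whereas stratified, basal and hair keratins mark skin-like differentiation. YAP1, a transcriptional co-activator held back by the Hippo kinases, enters the nucleus when cells spread or lose contacts and works with TEAD factors on genes of growth, adhesion and matrix.

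Levels are counts scaled by library size and TMM factor to CPM, and differences between libraries are on the log2(CPM + 1) scale. The difference of a gene is its log2 value in OAC_5.1_C minus the median log2 value of the other 8. Where the middle pair of those 8 values lie far apart, it is not the ratio of the printed CPM. The gap is its distance from the nearest of the other 8, whether above the highest or below the lowest. A gene was called higher with a gap of 2 or more above and 5 CPM or more in OAC_5.1_C, and lower with a gap of 2 or more below where each of the other 8 held 5 CPM or more. Intervals in parentheses are exact Poisson 95% limits on the count and cover counting error only, and a count of 0 is read against a floor of 3 counts, which is 0.0617 CPM in OAC_5.1_C.

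The OAC_5.1_C column held 50643672 counts, with 14516 genes reaching 1 CPM, against 16801179 to 69881539 counts and 13687 to 15236 such genes in the other 8. Mitochondrial genes took 2.82% of its counts, against 1.48% to 24.7% elsewhere. The library labelled OE19, a line known for amplified ERBB2, held 185 CPM of ERBB2, while the library labelled SK-GT-4 held 18325 CPM, so each name below is a label and no library was reassigned. Without OE19 there were 137 higher and 12 lower genes in OAC_5.1_C, and without SK-GT-4 there were 139 and 15, beside 128 and 11 with all 9 libraries. Across 17129 genes OAC_5.1_C was most like OACP4_C (Pearson r = 0.891, Spearman rho = 0.886), then JH_EsoAd1 (r = 0.864) and FLO-1 (r = 0.842), and least like ESO-26 (r = 0.765). These correlations run across genes, which are not independent replicates.

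OAC_5.1_C carried the epithelial markers its label implies. EPCAM, an epithelial adhesion molecule, stood at 531 CPM in OAC_5.1_C (524 to 537), against a lowest value of 0.189, a median of 366 and a highest of 1335 CPM in the other 8. E-cadherin (CDH1) was 453 CPM, against 0.173, 156 and 546 CPM. Of 8 measured fibroblast markers, LUM was the highest of 9 libraries at 30.1 CPM in OAC_5.1_C, against at most 0.692 CPM elsewhere, the matrix collagen gene COL1A2 had 0 counts in OAC_5.1_C and the proteoglycan gene DCN had 2, while COL1A1 was 15.3 CPM, against 0.577, 7.49 and 46.5 CPM elsewhere. The summed level of the 8 fibroblast markers was 46.3 CPM in OAC_5.1_C, against 1.92 to 1562 CPM in the other 8, and that of 9 measured haematopoietic markers was 6.15 CPM, against 3.22 to 2091 CPM. For 7 measured endothelial markers the sum was 21.98 CPM, against 0.750 to 58.1 CPM. The glandular regulators were not high. Of 14 columnar transcription factors, 1 lay at least 2-fold above and 5 at least 2-fold below, beside 12.2% and 6.97% of all measured genes. The median difference of 14 columnar transcription factors was -0.45 (-0.25 without ESO-51 and -0.24 without SK-GT-4), with HNF4A, a master regulator of gut epithelium, at 2.10 CPM in OAC_5.1_C, against 0, 13.8 and 167 CPM, and the intestinal regulator CDX2 at 2.02 CPM, against 0.446, 7.28 and 99.9 CPM. Medians for 15 intestinal and 14 gastric differentiation genes were both 0.00, beside a median of 0.00 over all 19719 genes that reached a CPM of 1 in at least 1 library. Their summed levels were low in OAC_5.1_C, though inside the range of the other 8. The intestinal sum was 14.9 CPM, against 10.2, 132 and 3067 CPM, and the gastric sum was 5.49 CPM, against 1.33, 88.3 and 2081 CPM. MUC5AC, the gastric surface mucin, was 0.288 CPM in OAC_5.1_C, against 0.0754, 0.641 and 1542 CPM.

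In all, 128 of 52158 genes (0.245%) were higher in OAC_5.1_C, 111 of them protein-coding, and 11 (0.0211%) were lower. In the other 8 libraries the same rule gave 37 to 181 higher and 10 to 175 lower genes each, so the counts of OAC_5.1_C lie inside the range of the series. Measured against the median of the other 8 instead, 835 genes (1.6%) lay at least 4-fold above and 255 (0.489%) at least 4-fold below. Genes above had to reach 5 CPM in OAC_5.1_C, and genes below a median of 5 CPM in the other 8. By the same rule the other 8 libraries had 583 to 903 genes above and 177 to 1163 below. In 53 of the 128 higher genes all of the other 8 libraries stayed below 1 CPM, and 34 reached 100 CPM or more in OAC_5.1_C. The next highest library was OACP4_C for 38 of the 128, JH_EsoAd1 for 25 and FLO-1 for 21. At the edge of the rule, the protease gene TMPRSS11E was just inside with a gap of 2.01 and the pseudogene KRT18P17 just outside with 1.99. Among lower genes ABCA1 was just inside with 2.001 and TCEA2 just outside with 1.82.

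KRT81, a hair keratin, had the largest gap of any protein-coding gene. It reached 943 CPM in OAC_5.1_C (935 to 952), against a lowest value of 0.289, a median of 0.912 and a highest of 4.97 CPM in the other 8, a gap of 7.31. In its transcripts 37.6% of 50-base words also occur in those of KRT86, so reads may be split between these genes in a way the deposited counts do not show. HSD11B1, the enzyme that turns inactive cortisone into cortisol, followed with 156 CPM in OAC_5.1_C (152 to 159), against 0, 0.0333 and 0.133 CPM, a gap of 7.11. C6orf15, a gene of the psoriasis susceptibility region near the class I HLA genes, was 166 CPM, against 0, 0.0437 and 0.333 CPM, a gap of 6.97. For these 3 genes no other library came near the OAC_5.1_C level, as the plot of the 20 largest gaps shows.

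**Figure D1:**
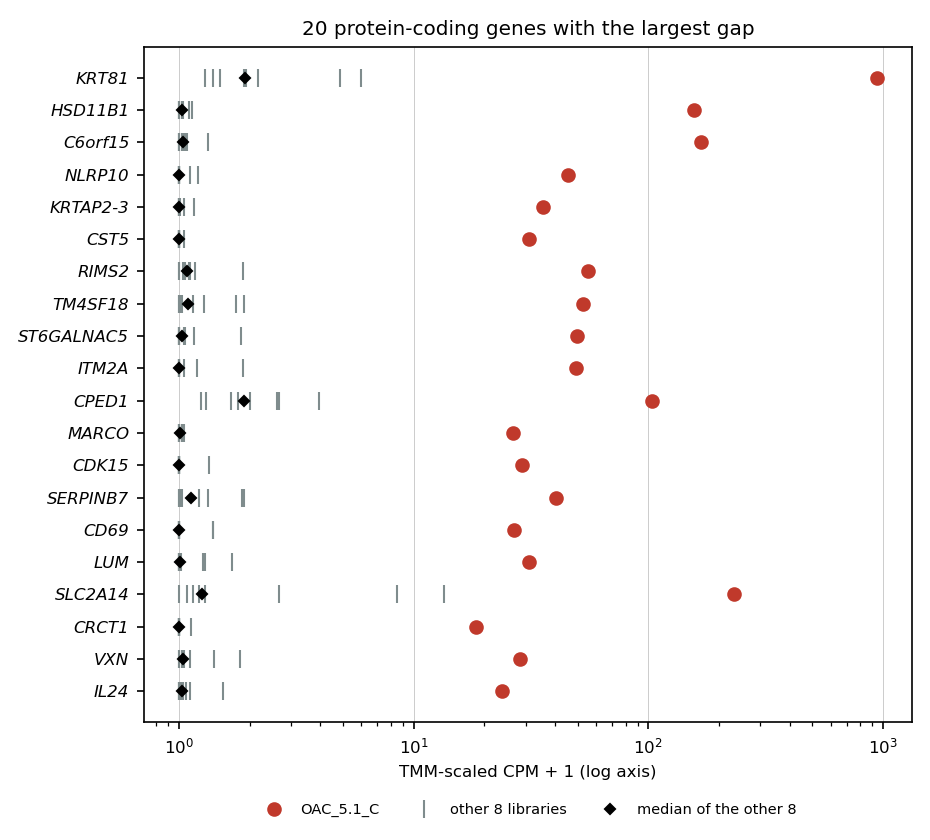
CPM + 1 on a log axis for the 20 protein-coding genes with the largest gap, one row per gene, with OAC_5.1_C as red circles, each of the other 8 libraries as a grey tick and their median as a black diamond. The OAC_5.1_C circle lies right of every grey tick in each row, from KRT81 with a gap of 7.31 to IL24 with a gap of 3.94.

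The genes behind them fall into several kinds. Of immune and inflammatory genes, NLRP10, an inflammasome-related sensor expressed in skin, was 44.7 CPM in OAC_5.1_C, against 0, 0 and 0.207 CPM in the other 8. The macrophage scavenger receptor gene MARCO was 25.5 CPM, against 0, 0.0133 and 0.0496 CPM, and CD69, an early activation marker of lymphocytes, was 25.8 CPM, against 0, 0 and 0.397 CPM. PTPRC, the pan-leukocyte marker CD45, stood beside them at 1.81 CPM, against 0, 0.0443 and 0.496 CPM, and CD3E and CD68 had 3 and 4 counts. IL24, a cytokine of the IL-10 family, was 22.7 CPM, against 0, 0.0309 and 0.547 CPM. None of the leukocyte markers PTPRC, CD3E and CD68 reached 2 CPM in OAC_5.1_C.

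Secreted and surface proteins made up another share of the largest gaps. CST5, the cysteine protease inhibitor cystatin D, was 30.1 CPM in OAC_5.1_C, against 7 libraries at 0 counts and 0.0496 CPM in JH_EsoAd1. LUM, the matrix proteoglycan lumican and one of the fibroblast markers above, was 30.1 CPM, against 0, 0.0111 and 0.692 CPM, while its neighbour DCN stayed near 0. The sialyltransferase gene ST6GALNAC5 was 48.9 CPM, against 0, 0.0267 and 0.843 CPM, and SERPINB7, a protease inhibitor of epidermis, was 39.6 CPM, against 0, 0.123 and 0.892 CPM. CPED1 was 102 CPM, against 0.240, 0.892 and 2.97 CPM. The synaptic release gene RIMS2 was 54.3 CPM, against 0, 0.0817 and 0.867 CPM. Also among the 20 were TM4SF18, ITM2A, CDK15, CRCT1 and VXN at 17.5 to 51.7 CPM, none above 0.892 CPM in any other library. The 5 noncoding or unannotated genes with the largest gaps were LINC01819, LINC00460, AC022730.4, GAS6-DT and AF121898.1, at 8.21 to 25.8 CPM in OAC_5.1_C and at most 1.21 CPM elsewhere.

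SLC2A3, the high-affinity glucose transporter GLUT3 of neurons, reached 1224 CPM in OAC_5.1_C (1214 to 1234), against 0.143, 1.05 and 103 CPM in the other 8, a gap of 3.56. Its close relative SLC2A14 was 231 CPM, against 0, 0.256 and 12.5 CPM, and 16.01% of its 50-base words also occur in SLC2A3, so part of its count may be SLC2A3 reads. ESO-26 was the next highest library for both. SLC2A1, the widely expressed transporter GLUT1, was 594.6 CPM in OAC_5.1_C, against 26.6, 185 and 752 CPM, and JH_EsoAd1 was above it. Other hypoxia and glycolysis genes lay closer to the median: the median difference of 19 was 0.11 (-0.12 to 0.24 when one other library was left out), with 3 members at least 2-fold above and 4 at least 2-fold below. Over all 19719 measured genes, 12.2% lay at least 2-fold above and 6.97% at least 2-fold below the median, and the counts for gene lists below are to be read against these shares. No share of all genes is given for being highest or lowest in OAC_5.1_C. Counts of list members or neighbouring genes that were highest or lowest there therefore have no such reference. The lists were not tested and share some members, among them AXL, F3, TGFB2 and BIRC3.

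Keratins of 3 kinds lay above the median of the other 8 in OAC_5.1_C, to different degrees. Of the 6 simple epithelial keratins, 5 lay at least 2-fold above the median of the other 8, with a median difference of 2.72, and their summed level was 14498 CPM, against 158 to 13174 CPM. KRT8 was 7808 CPM in OAC_5.1_C (7783 to 7833), against 13.4, 1382 and 3342 CPM, and its partner KRT18 was 2099.6 CPM, against 4.56, 271 and 646 CPM, so that OAC_5.1_C was the highest of 9 for both. KRT19 was 3072 CPM in OAC_5.1_C, below the 9611 CPM of OACP4_C, and the intestinal keratin KRT20 was 0.103 CPM, against 0.0754, 0.282 and 11.5 CPM. On the FPKM scale, which divides by gene length, KRT19 (396 FPKM) and KRT8 (324 FPKM) compared with 375 FPKM for beta-actin (ACTB) in this library.

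Of 11 measured stratified and basal keratins, 7 lay at least 2-fold above and none below, with a median difference of 1.16 (0.57 with a pseudocount of 5 and 0.31 with FPKM). This list was not highest in OAC_5.1_C. JH_EsoAd1 (2.09) and SK-GT-4 (1.64) had higher medians, OAC_5.1_C was the highest of 9 for 1 member, and its summed level was 424 CPM, against 18.6 to 899 CPM. KRT80 was 305 CPM in OAC_5.1_C, against 2.83, 32.1 and 162 CPM, and the basal keratin KRT17 was 42.0 CPM, against 0.0713, 3.15 and 328 CPM. The defining basal pair KRT5 and KRT14 stayed low at 1.46 and 3.42 CPM, and TP63, the basal regulator, was 1.30 CPM, against 0, 0.114 and 292 CPM. Over the 13 hair keratin and keratin-associated protein genes in the table the median difference was 1.36. The 7 measured ones had a median of 4.18, but 3 of these, KRT33A, KRTAP2-3 and KRTAP2-4, reached 1 CPM in OAC_5.1_C alone and so had to be highest there, and the other 6 genes stayed under 1 CPM in each library. KRT34 was 32.0 CPM, against 0, 0 and 5.04 CPM, KRT33B was 12.7 CPM, against 0, 0 and 1.36 CPM, and KRTAP2-3 was 34.8 CPM, against 0, 0 and 0.155 CPM. For KRT34, KRT33B and KRTAP2-3 the next highest library was OACP4_C. KRTAP2-3 shares 39.5% of its 50-base words with KRTAP2-4.

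Genes of the cornified envelope and of squamous differentiation were high to different degrees. Their list had 12 of 17 measured members at least 2-fold above and none below, with a median difference of 1.42 (0.59 with a pseudocount of 5 and 0.51 with FPKM), and OAC_5.1_C was the highest of 9 for 6. SFN (14-3-3 sigma) was 190.5 CPM in OAC_5.1_C, against 0.528, 52.7 and 167 CPM, the desmosomal gene PKP1 was 20.004 CPM, against 0, 0.332 and 7.14 CPM, and the kallikrein KLK10 was 39.7 CPM, against 0.0577, 5.18 and 80.1 CPM. No member of this list passed the gap rule. Filaggrin (FLG), the filament-bundling protein of skin, is outside this list and was named after its value was seen. FLG was 144 CPM in OAC_5.1_C, against 0, 1.27 and 12.5 CPM, a gap of 3.43. The envelope precursor gene SPRR1B was 4.16 CPM, against 0, 0 and 0.155 CPM, above every other library though under the 5 CPM of the gap rule. Involucrin (IVL) was 0.659 CPM, against 0, 0 and 1.57 CPM. SPRR1B and SPRR2D counted as measured through OAC_5.1_C alone, and over all 22 genes in the table the median was 1.14.

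Of the cell-junction and epithelial splicing genes, 16 of 28 lay at least 2-fold above the median and none below, with a median difference of 1.17. GRHL2, a transcription factor that maintains epithelial junctions, was 218 CPM in OAC_5.1_C, against 0.0713, 34.8 and 167 CPM, and P-cadherin (CDH3) was 479 CPM, against 0.404, 85.0 and 248 CPM. OAC_5.1_C was the highest of 9 for both genes, though by less than a gap of 1. Without OE33 the median of this list was 0.91. OACP4_C had a slightly higher list median (1.20), SK-GT-4 (1.01) and ESO-51 (0.92) were close, and ESO-26 (-4.09) and OE33 (-3.55) were lowest. Mesenchymal genes had a median difference of 0.00, with 7 of 23 at least 2-fold above and 2 below.

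LAMA3 and LAMB3, which encode chains of laminin-332, the basement membrane protein to which hemidesmosomes attach, were highest in OAC_5.1_C. LAMA3 was 1774 CPM, against 3.46, 109 and 419 CPM in the other 8, a gap of 2.08, and LAMB3 was 1668 CPM, against 0.807, 285 and 386 CPM, a gap of 2.11. The other parts of the attachment did not follow at that size. The integrin chains ITGA6 (591 CPM, against 19.7, 328 and 1079 CPM) and ITGB4 (897 CPM, against 1.15, 506 and 4143 CPM) lay inside the range of the other libraries, and the hemidesmosomal collagen COL17A1 was low at 5.31 CPM, against 0.346, 43.3 and 294 CPM. Across the list of 15 the median difference was 0.60, with 4 at least 2-fold above and 1 below. LAMB3 and HSD11B1 lie close together on chromosome 1, and MIR205HG, a noncoding gene on the same chromosome named after its value was seen, was 145 CPM in OAC_5.1_C, against 0, 0.0555 and 33.5 CPM.

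YAP1 and most members of a list of known YAP target genes were high in OAC_5.1_C. Whether YAP1 acts on them in this line was not tested. YAP1 itself reached 1429.9 CPM (1419 to 1441), against a lowest value of 28.3, a median of 159 and a highest of 218 CPM in the other 8, a gap of 2.71. No other library came near it. Its DNA-binding partner TEAD1 was 414 CPM, against 72.3, 135 and 377 CPM. Of 18 YAP target genes, 15 lay at least 2-fold above the median of the other 8 and none below, with a median difference of 2.10, and 11 were highest in OAC_5.1_C. The next highest list median among the libraries was 1.20 in OE33, and the lowest was -1.20 in SK-GT-4.

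ANKRD1, a nuclear cofactor and a standard YAP readout, was 323 CPM in OAC_5.1_C (318 to 329), against 0, 0.413 and 66.3 CPM. CCN1, a secreted matrix-associated protein formerly called CYR61, was 499 CPM, against 1.61, 15.0 and 75.8 CPM, a gap of 2.70. AXL, a receptor tyrosine kinase, was 1449 CPM, against 1.07, 99.0 and 234 CPM, a gap of 2.62. These 3 passed the gap rule. TGFB2, a TGF-beta ligand, was 439.6 CPM, against 0.161, 17.7 and 139 CPM, F3, the tissue factor that starts coagulation, was 1538 CPM, against 0.519, 38.8 and 1026 CPM, and AMOTL2, a junctional inhibitor of YAP, was 486 CPM, against 30.4, 71.8 and 208 CPM. OAC_5.1_C did not overlap with the other 8 for these 3 genes either. CCN2 overlapped, at 25.8 CPM, against 0.634, 3.96 and 55.9 CPM, and FOXF2 had 0 counts in OAC_5.1_C, against 0, 0.335 and 3.13 CPM. Thrombospondin 1 (THBS1), a matrix protein outside this list named after its value was seen, was 4828 CPM in OAC_5.1_C, against 17.1, 94.5 and 886 CPM.

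**Figure D2:**
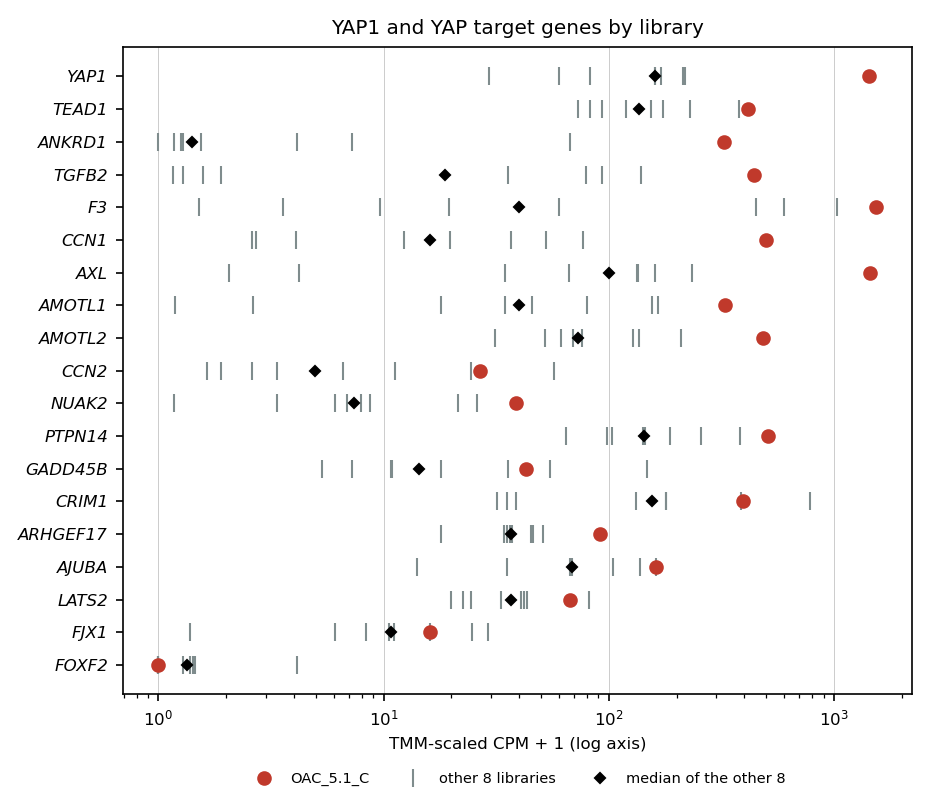
CPM + 1 on a log axis for YAP1, its partner TEAD1 and the other YAP target genes, one row per gene, with OAC_5.1_C as red circles, each of the other 8 libraries as a grey tick and their median as a black diamond. The circle is right of every tick for YAP1, TEAD1, ANKRD1, TGFB2, F3, CCN1 and AXL, and at 0 CPM for FOXF2.

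TEAD factors bind the letters GGAATG, in capitals below on either strand (CATTCC on the other). Within the RefSeq promoter windows of GRCh38.p14, which run 250 bases before to 50 after each start, 7 of the 14 YAP target genes with a window held this hexamer (50%), against 14.05% of all 27305 windows and 11.2% of 12488 windows of measured genes. The list is made of known YAP targets, and among the 85 genes called higher in OAC_5.1_C that have a window, 14 held it (16.5%). The AP-1 letters TGANTCA (N is any base) were counted in the same windows. They were in 10 of these 85 (11.8%), against 7.76% of all windows and 5.22% of windows of measured genes. Of the 14 YAP target genes, 2 held them (14.3%). Promoters of ANKRD1 (chr10:90921038-90921337, minus strand), CCN2 (chr6:131951323-131951622, minus strand) and TGFB2 (chr1:218345086-218345385, plus strand) are shown 5′ to 3′ because these targets hold the hexamer and differ in outcome: ANKRD1 and TGFB2 were highest in OAC_5.1_C and CCN2 was not. The matches are a description of these letters, not of bound sites. ANKRD1 has 2, starting 220 and 128 bases before the annotated start, CCN2 has 3, and TGFB2 has 1.
ANKRD1: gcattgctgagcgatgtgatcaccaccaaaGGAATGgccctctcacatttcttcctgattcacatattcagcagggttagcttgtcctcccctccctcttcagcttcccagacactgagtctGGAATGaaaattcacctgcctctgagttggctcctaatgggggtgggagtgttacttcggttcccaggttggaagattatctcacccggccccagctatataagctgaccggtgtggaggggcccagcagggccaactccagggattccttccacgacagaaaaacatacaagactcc
CCN2: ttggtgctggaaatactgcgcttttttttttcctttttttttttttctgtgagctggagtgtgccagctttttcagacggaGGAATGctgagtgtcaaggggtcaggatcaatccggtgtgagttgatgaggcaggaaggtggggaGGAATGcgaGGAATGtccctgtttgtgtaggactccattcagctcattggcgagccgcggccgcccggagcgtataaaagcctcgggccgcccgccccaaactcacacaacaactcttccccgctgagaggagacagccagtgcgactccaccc
TGFB2: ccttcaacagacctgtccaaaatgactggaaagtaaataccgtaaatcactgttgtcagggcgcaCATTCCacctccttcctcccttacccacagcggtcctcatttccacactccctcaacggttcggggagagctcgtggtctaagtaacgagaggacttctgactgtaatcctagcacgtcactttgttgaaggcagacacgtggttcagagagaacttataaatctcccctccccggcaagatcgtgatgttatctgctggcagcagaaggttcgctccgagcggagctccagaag
AXL has a window without the hexamer.

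YAP1 sits in a block of neighbouring genes on chromosome 11 that were high together. Genes were put in the order of GENCODE release 29, without coordinates because it is on another build than the counts. Of 10198 ordered protein-coding genes with a median of at least 5 CPM in the other 8, 2.72% lay at 2 or more above and 2.41% at 2 or more below. From YAP1 to DCUN1D5, 5 of 6 genes lay at 2 or more above, and all 5 also passed the gap rule. BIRC3, an inhibitor of apoptosis in NF-kB signalling, was 1814 CPM in OAC_5.1_C (1803 to 1826), against 0.807, 21.4 and 146 CPM. Its neighbour and relative BIRC2 was 763 CPM, against 43.9, 75.9 and 91.7 CPM, TMEM123 was 4873 CPM, against 222, 431 and 752 CPM, and DCUN1D5 was 395 CPM, against 27.9, 37.4 and 64.7 CPM. The exception was the collagenase gene MMP1, at 1.07 CPM, against 0.200, 5.94 and 2521 CPM. High values extended to ARHGAP42 (343 CPM, against 7.43, 51.9 and 103 CPM) and CEP126 before YAP1 and to DYNC2H1 (a difference of 2.46) after DCUN1D5, whereas JRKL (-0.13) and CASP4 (-0.30) on either side were near the median. The median of the 6 genes was 3.34 in OAC_5.1_C, against -1.02 to 0.63 in the other 8 libraries.

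A longer block lay on chromosome 22. From DGCR6 to PPIL2, 34 of 35 ordered genes were at least 2-fold above the median of the other 8 (10.5% of all ordered genes were), 27 lay at 2 or more above, and OAC_5.1_C was the highest of 9 for 30. The median difference was 2.43, and the range was 0.53 for CLTCL1 to 3.66 for UBE2L3. UBE2L3, a ubiquitin-conjugating enzyme, was 1121 CPM in OAC_5.1_C, against 40.2, 88.0 and 107 CPM, and 2.50% of its 50-base words also occur in UBE2L5. CRKL, an adaptor of growth factor signalling, was 834 CPM, against 84.1, 138 and 336 CPM. The Mediator subunit gene MED15 was 473 CPM, against 10.2, 53.3 and 103 CPM, and the replication factor gene CDC45 was 192 CPM, against 6.45, 30.0 and 69.4 CPM. LZTR1, an adaptor that limits RAS signalling, was 135 CPM, below the 242 CPM of OE33. USP18, the next gene before the block, had a difference of 0.39. OE33 had the next highest block median at 1.54, while ESO-26 was at -1.07.

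A shorter block on chromosome 19 held CCNE1, the cyclin that drives entry into S phase. CCNE1 was 73.6 CPM in OAC_5.1_C, against 2.602, 13.3 and 28.2 CPM, and POP4, C19orf12 and URI1 beside it lay between 1.77 and 2.12 above. The median of the 4 genes was 2.06 in OAC_5.1_C, against 1.26 in OE33, the next highest library. High values went past these 4 genes, with UQCRFS1 at 1.35 before them and ZNF507 at 0.97 after. ZNF254, the gene before UQCRFS1, was at -2.42. The 8 genes after ZNF507, DPY19L3 to LRP3, lay 1.15 to 2.78 above. The last of these, RHPN2, GPATCH1 and LRP3, formed a run at 2 or more above, as did FXYD3, FXYD5 and LSR further along. FXYD5, a cell-adhesion modulator, was 777 CPM, against 7.67, 101 and 149.5 CPM. In all, 8 runs of 3 or more neighbours at 2 or more above held 41 genes, and 4 runs at 2 or more below held 14.

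The low runs lay on chromosomes 9, 10 and 19. On chromosome 9 CDKN2A, which encodes cell-cycle inhibitors, had 0 counts in OAC_5.1_C, against 0.0400, 31.3 and 154 CPM, CDKN2B had 1 count and MTAP had 5. FLO-1 and JH_EsoAd1 were also near 0 for CDKN2A. Of 10 measured genes around it, 5 lay at least 2-fold below and none above, with a median difference of -1.25. This median was -0.88 without FLO-1, -0.45 with a pseudocount of 5, -0.34 with FPKM and -0.39 over all 13 in the table, and that of JH_EsoAd1 was lower at -2.77. The neighbours KLHL9 (-0.11) and FOCAD (-0.39) on one side were close to the median, MLLT3 beyond them was 1.19 CPM, against 4.22, 19.7 and 53.1 CPM, and CAAP1, PLAA, IFT74 and MOB3B on the other side were 1.21 to 2.42 above. Of 13 ordered genes from ZNF350 to ZNF611 in the zinc finger cluster of chromosome 19, 7 lay at 2 or more below and OAC_5.1_C was the lowest of 9 for 7. Not all neighbours were low there, with ZNF841 at -0.12 and ZNF432 at -0.52. Past ZNF611 the cluster was mixed as well. ZNF28 (-4.30), ZNF468 (-3.32), ZNF845 (-4.60) and ZNF525 (-4.43) were low. ZNF600 (-0.66), ZNF320 (1.17), ZNF816 (0.28) and ZNF160 (-0.27) among them were not. Block members and edges were chosen after their values were seen.

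**Figure D3:**
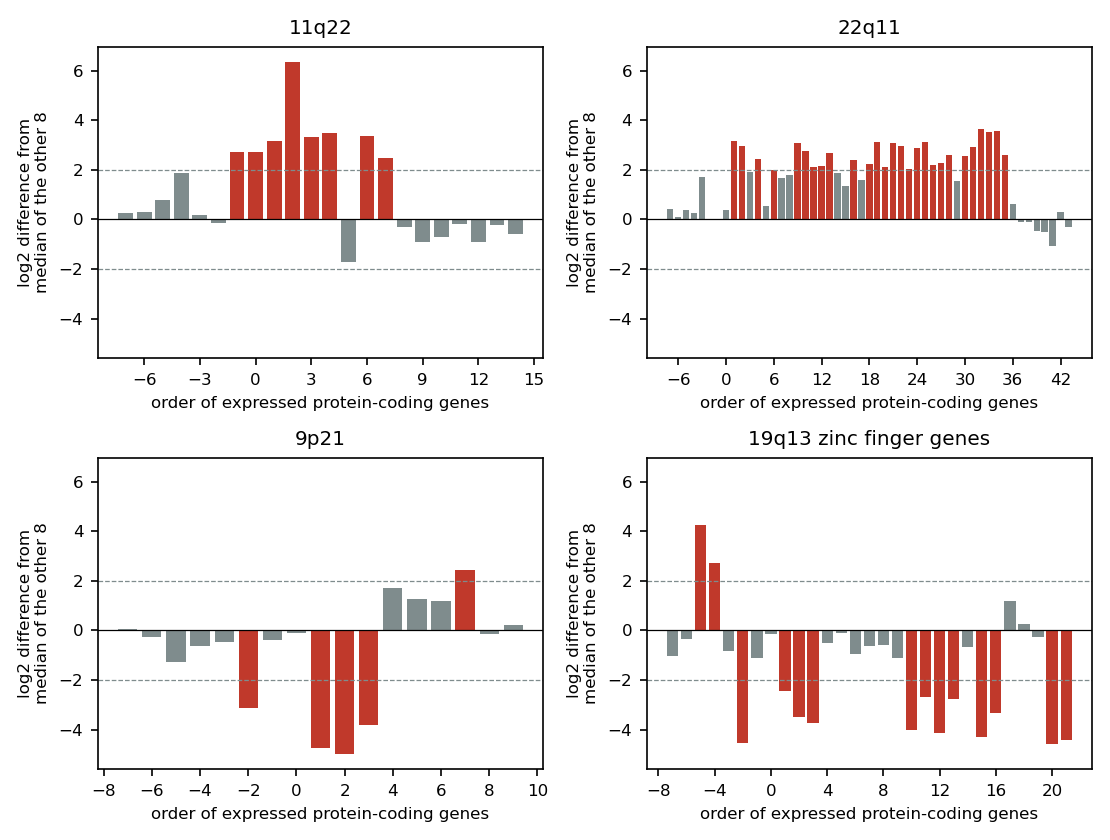
Difference of OAC_5.1_C from the median of the other 8 (log2 scale) for expressed protein-coding genes in chromosomal order, one bar per gene, in 4 regions, with red bars at 2 or more in either direction. Position 1 is YAP1, DGCR6, MTAP or ZNF350. Bars are high from ARHGAP42 to DYNC2H1 apart from MMP1 in 11q22 and along DGCR6 to PPIL2 in 22q11, low at MTAP, CDKN2A and CDKN2B in 9p21, and low for some zinc finger genes in 19q13.

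The 11 lower genes included 5 zinc finger genes, ZNF268, ZNF845, ZNF808, ZNF468 and ZNF611, which belong to a large family of mainly repressive DNA-binding proteins. All of these but ZNF268 lie in the chromosome 19 cluster above. ZNF268 had 4 counts in OAC_5.1_C (0.0823 CPM), against 13.1, 20.6 and 75.7 CPM, and ZNF808 also had 4 counts, against 7.12, 16.7 and 48.5 CPM. ARHGEF10, a guanine nucleotide exchange factor, had the largest gap of the lower genes at 4.17, with 0.144 CPM in OAC_5.1_C, against 19.6, 39.9 and 83.3 CPM. JMY, an actin nucleator, had 1 count, against 9.90, 37.9 and 109 CPM. The RNA-binding protein gene MSI2 was 2.45 CPM, against 22.8, 80.0 and 192 CPM, and GAA, the lysosomal enzyme that breaks down glycogen, was 4.40 CPM, against 25.5, 106 and 181 CPM. LINC00649 was the noncoding gene among them. Near ZNF268 on chromosome 12, the checkpoint ubiquitin ligase gene CHFR had 1 count, against 0.151, 24.7 and 52.3 CPM. SMAD4, which carries TGF-beta signals to the nucleus, was lowest in OAC_5.1_C at 7.47 CPM (6.72 to 8.28), against 23.6, 38.6 and 83.0 CPM, while 16 measured genes around it on 18q21 had a median difference of 0.58.

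Secreted factors and surface proteins of signalling pathways followed. Of 10 genes listed for plasminogen activation, 7 lay at least 2-fold above the median and none below, with a median difference of 2.02. This median was 3.26 without FLO-1, 1.70 without ESO-26 or ESO-51 and 1.82 with a pseudocount of 5. This list includes F3, the tissue factor of coagulation that is also in the YAP target list. Tissue plasminogen activator (PLAT) was 233 CPM in OAC_5.1_C, against 0.156, 3.38 and 1215 CPM, urokinase (PLAU) was 356 CPM, against 0.257, 24.7 and 998 CPM, and the inhibitor gene SERPINB2 was 84.2 CPM, against 0, 0.0536 and 21.3 CPM. SERPINB2 did not overlap with the other libraries, whereas OE19 held more PLAT and OACP4_C more PLAU. Of 9 measured clade B serpins, 5 lay at least 2-fold above and none below, with a median difference of 1.24. This median was 0.90 without OACP4_C, ESO-26, OE33 or ESO-51, 0.65 with FPKM and 0.67 over all 10 in the table, and SERPINB7 counted as measured through OAC_5.1_C alone. Of the EGFR family ligands, 5 of 10 lay at least 2-fold above, with a median difference of 0.86. It was 1.35 without FLO-1 or JH_EsoAd1, 0.46 with a pseudocount of 5 and 0.45 with FPKM, and the list median of JH_EsoAd1 was also 0.86. TGFA was highest in OAC_5.1_C at 243 CPM, against 0.0377, 54.8 and 202 CPM, beside 762 CPM of its receptor EGFR, against 6.11, 148 and 857 CPM. FGFR2, a fibroblast growth factor receptor, was 149 CPM, against 0.107, 2.73 and 459.8 CPM.

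Of 13 measured immune checkpoint ligands, 8 lay at least 2-fold above and 1 below, with a median difference of 1.50, and OAC_5.1_C was the highest of 9 for 9. The PD-L1 gene CD274 had 59.1 CPM in OAC_5.1_C (56.9 to 61.3), against 0, 0.391 and 45.4 CPM, and PDCD1LG2 (PD-L2) beside it was 9.71 CPM, against 0, 0.0839 and 4.57 CPM. VTCN1, the ligand B7-H4, was 72.1 CPM, against 0, 0.171 and 13.5 CPM, a gap of 2.34. NT5E, the adenosine-producing enzyme CD73, was 998 CPM, against 2.42, 73.3 and 400.3 CPM. The member at least 2-fold below was LGALS9, at 1.01 CPM, against 0, 8.71 and 15.7 CPM. OACP4_C was the next highest library for CD274, PDCD1LG2 and NT5E.

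Chemokines and NF-kB cytokines had 12 of 20 measured members at least 2-fold above and 2 below, with a median difference of 1.24 (0.66 with a pseudocount of 5 and 0.70 with FPKM). The list includes BIRC3 of the chromosome 11 block. CXCL8, a neutrophil attractant, was 62.1 CPM in OAC_5.1_C, against 0.0577, 2.42 and 24.4 CPM, and LIF, a cytokine of the IL-6 family, was 82.3 CPM, against 0.0577, 21.4 and 170.4 CPM. Of 21 measured IL-1 family and inflammasome genes, 8 lay at least 2-fold above and 2 below, with a median difference of 0.10. In that list NLRP3, an inflammasome sensor, was 14.7 CPM, against 0, 0.0467 and 0.415 CPM. NLRP3 and NLRP10 counted as measured through OAC_5.1_C alone. Interferon-stimulated genes were split, with 5 of 23 at least 2-fold above, 8 at least 2-fold below and a median difference of -0.58. Their median was -0.35 without FLO-1, OACP4_C or ESO-51 and -0.82 without ESO-26 or SK-GT-4. IFIT1 was 161 CPM, against 0.0965, 26.9 and 207 CPM, while IFI27 was 1.46 CPM, against 0.257, 68.9 and 665 CPM.

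**Figure D4:**
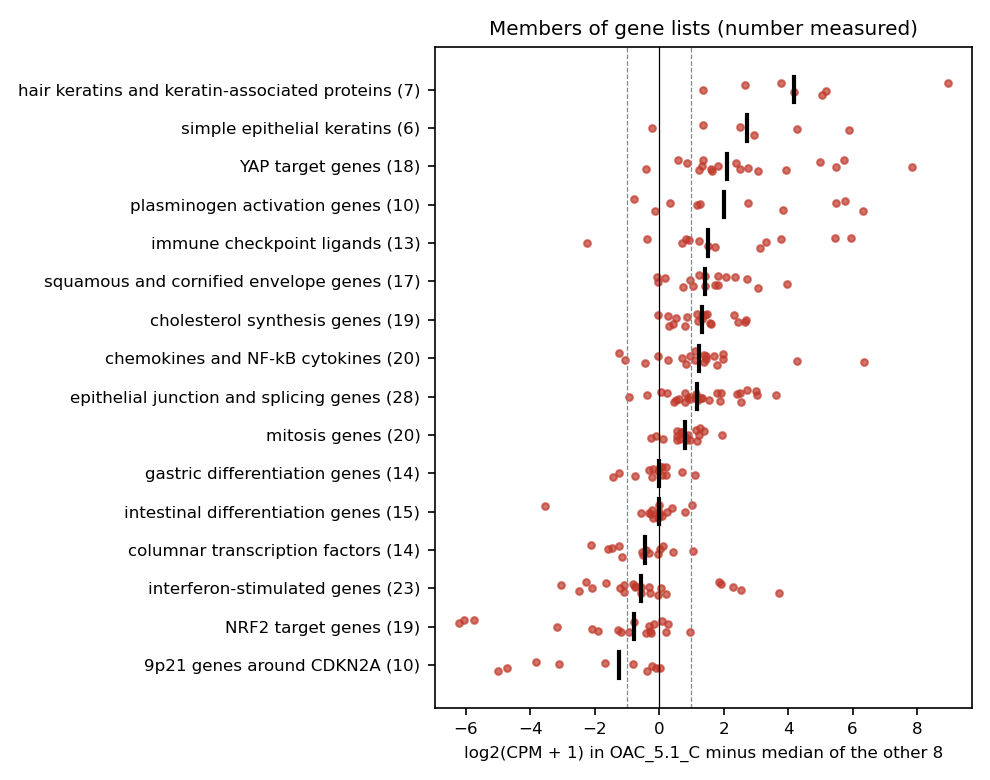
Difference of OAC_5.1_C from the median of the other 8 (log2 scale) for each measured member of 16 gene lists, one red point per gene, with the list median as a black bar, dashed lines at 1 and -1, and the number of measured members in parentheses. Medians of measured members run from 4.18 for hair keratins and keratin-associated proteins (1.36 over all members in the table) to -1.25 for 9p21 genes (-0.39 over all members), with intestinal and gastric lists at 0.00.

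Metabolic gene lists differed in both directions. Of 19 cholesterol synthesis genes, 12 lay at least 2-fold above and none below, with a median difference of 1.32, and OAC_5.1_C was the highest of 9 for 9. HMGCS1, which makes HMG-CoA for the mevalonate pathway, was 665 CPM in OAC_5.1_C, against 42.9, 102 and 409 CPM. The remaining 7 genes of the list lay within 2-fold of the median. ABCA1, which exports cholesterol from cells, was lowest in OAC_5.1_C at 2.16 CPM (1.77 to 2.62), against 11.6, 55.0 and 242 CPM, with a gap of 2.001 that fell below 2 with DESeq2 size factors and with TMM factors taken from all genes.

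NRF2 target genes, which handle oxidants and reactive carbonyls, had none of 19 members at least 2-fold above and 8 at least 2-fold below, with a median difference of -0.77. It lay between -0.32 (without SK-GT-4 or OE19) and -1.21 (without OACP4_C or OE33) when one other library was left out, with -0.33 without ESO-26 or ESO-51 and -0.47 without FLO-1 or with FPKM. OACP4_C (-1.13) and OE33 (-1.80) had lower medians than OAC_5.1_C. The aldo-keto reductase genes were the lowest of them. AKR1C3 was 3.75 CPM in OAC_5.1_C, against 0.302, 348 and 2804 CPM, and AKR1B10 had 4 counts, against 0.362, 20.4 and 1521 CPM. AKR1C1, AKR1C2, AKR1C3 and AKR1C4 are neighbours on chromosome 10 and formed a low run, and 28.3% of 50-base words of AKR1C1 also occur in AKR1C2. OE33 was lower than OAC_5.1_C for AKR1C1, AKR1C2 and AKR1C3. The detoxifying enzyme NQO1 was 246 CPM, against 102, 556 and 3158 CPM.

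Genes of proliferation differed less. Of 20 mitosis genes, 6 lay at least 2-fold above and none below, with a median difference of 0.80, and OAC_5.1_C was the highest of 9 for 10 of them. The list median of ESO-26 was slightly higher at 0.84. CCNB2, a mitotic cyclin, was 199.9 CPM in OAC_5.1_C, against 28.2, 51.0 and 134 CPM. The median of 21 DNA replication genes was 0.41, with 5 at least 2-fold above and none below.

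Set against OACP4_C alone, the library it resembled most, 692 of 11934 genes that reached 5 CPM in either library lay at least 4-fold higher in OAC_5.1_C and 537 at least 4-fold lower. The largest differences in OAC_5.1_C over OACP4_C were in HEG1, a receptor of cell junctions, at 376 CPM in OAC_5.1_C, against 0.518 CPM in OACP4_C, MXRA5 at 214, against 0.0863 CPM, and RDX, which links actin to the membrane, at 181, against 0.0863 CPM. UPK1B, a uroplakin of bladder epithelium, was 507 CPM in OAC_5.1_C, against 2.67 CPM in OACP4_C, and it also passed the gap rule over all 8. C6orf15, KRT81, HSD11B1, FLG, DCBLD2 and SLC2A3 completed the 10 largest. In the other direction were LCN2, an iron-binding defence protein, at 1.32 CPM in OAC_5.1_C, against 515 CPM in OACP4_C, the Wnt inhibitor gene DKK1 at 0.391, against 249 CPM, DHRS9 at 3.35, against 581 CPM, and MTAP, CDKN2A, IL1RL1, FAM83A, IFI27, WDR72 and CDKN2B.

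By FPKM, the 10 highest protein-coding nuclear genes of OAC_5.1_C were TMSB10, TMSB4X, EEF1A1, H1-2, S100A6, KRT19, H2AC20, FTL, ACTB and HSP90AB1. TMSB10 and TMSB4X encode the actin-binding thymosins and stood at 1394 and 722 FPKM in OAC_5.1_C, against medians of 744 and 108 FPKM in the other 8. FTL, the ferritin light chain, was 389.6 FPKM, against a median of 1041 FPKM.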

How the data were processed

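Total RNA of 9 cell lines was sequenced with 1 library per line, and libraries were grouped by their labels. The authors worked on GRCh37 with STAR 2.6.1d, FastQC 0.11.7 and R 3.6.1, per the submitters' processing notes. The counting program, annotation release and strand setting are not given in the sources used here, so counts of overlapping genes on either strand may be mixed. The authors' deposited table holds raw whole-number counts. A row with a blank gene name, 0.00485% to 0.00965% of counts, was left out. The deposited files of each line hold the authors' FPKM and, per the file headers, other columns such as gene length. OACM5.1_C in the table header was read as OAC_5.1_C, and the counts of 49261 names equal those in the files of each line. A further 1261 names had an identifier whose counts differed, and their FPKM were not used.

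Counts were scaled by TMM (edgeR 4.0.16 in R 4.3.3) on 17163 genes that reached 1 CPM in 2 or more libraries, and used as log2(CPM + 1). TMM factors were 0.959 in OAC_5.1_C and 0.831 to 1.11 in the other 8. DESeq2 1.42.0 size factors, TMM factors from all genes, library size alone, a pseudocount of 5, other CPM minimums, the deposited FPKM, a 2-fold threshold and leaving out each other library were tried as alternatives. Python 3.11.15 with numpy 2.4.6, pandas 2.3.3, scipy 1.17.1 and matplotlib 3.10.9 was used for the rest. The code of the calling rule was run on simulated counts with the same mean in each library and large changes put into OAC_5.1_C. Those counts hold no differences among the other lines, so they cannot show how the rule behaves on these libraries. The members and lists were chosen with earlier results of these data known, and of 761 distinct list names 747 are in the table. Genes named are the 20 protein-coding genes with the largest gap above, all called lower, the 5 noncoding genes with the largest gap, up to 5 members per list with the largest difference, the 10 highest by FPKM, members of runs, a fixed set of known cancer genes, and the 10 largest differences from OACP4_C in each direction. Markers and other list members are named for their known role, and a few selected genes were left out of the text.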

Additional observations from a re-analysis of the deposited data

Results flagged for a closer look

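In the deposited file of OAC_5.1_C, 37.0% of counts belong to identifiers outside the count table, against 25.8% to 77.3% in the files of the other 8 lines. This is signal that none of the comparisons uses. Most of it came from ENSG00000266658, with 20.97% of the counts of OAC_5.1_C, against 12.4% to 48.3%, and ENSG00000272060, with 8.11%, against 4.69% to 26.5%. The deposited FPKM were computed with these counts in the total.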

How the results depend on the processing

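With 1 library per line, no value here has a replicate check, and counting error is the one error known. The 128 higher and 11 lower genes became 136 and 10 with DESeq2 size factors and, chosen after seeing the data, with TMM factors from all genes, and 117 and 11 with library size alone. With a pseudocount of 5 there were 70 higher and 1 lower, with 448 and 81 genes over 4-fold above and below the median in place of 835 and 255. With the deposited FPKM there were 48 higher, 0 lower, 308 above and 18 below, and a 2-fold threshold gave 347, 50, 1888 and 1069. The same minimum of 5 was applied to FPKM, and the cause of these differences was not tested. Leaving out one other library at a time gave 137 to 168 higher and 11 to 17 lower genes (17 without ESO-26), and 766 to 913 above and 245 to 300 below. Of 36 genes named by gap, 35 kept the call with DESeq2 size factors or TMM factors from all genes, 24 with the pseudocount of 5, 13 with FPKM and 36 without each library.

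Of the gene lists, 11 had a median of 1 or more and 1 of -1 or less. The numbers were 7 and 0 with FPKM, 8 and 0 with the pseudocount of 5, 10 and 0 over all members in the table, 12 and 2 with means, and 10 to 13 and 0 to 2 without each library. The 9p21 list lost its median of -1 without FLO-1 (-0.88). Runs of neighbours numbered 8 high and 4 low, 47 and 39 at a difference of 1, and 23 high with genes that reached 5 CPM in either OAC_5.1_C or the median, an alternative chosen after seeing the data. Scaling shifted the median of all measured genes by 0.06 at most. No paired analysis was possible because each line has 1 library.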
